A study of Mus musculus with 48 samples.

Results

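The 10 long noncoding RNAs Malat1, Neat1, Meg3, Rian, Mirg, Miat, Snhg11, Snhg1, Gas5 and Pantr1 were followed in the substantia nigra (SN), the midbrain region that holds dopaminergic neurons of the nigrostriatal pathway. They were found by gene symbol among the 55385 genes counted, and all 10 had enough counts to be among the 18293 genes fitted. The RNA-seq covered 48 male C57BL/6J mice, harvested 90 to 98 days after injection into the striatum of one side, at an age of 30.1 to 31.3 weeks. A group of 12 mice received α-synuclein (α-syn) monomer and breathed 21% O2, and the other groups of 12 received α-syn pre-formed fibrils (PFF) at 21% O2, monomer at 11% O2 or PFF at 11% O2. Monomer was thus the control injection, so no group was free of injected α-syn. The labels describe housing at 21% or 11% O2 after recovery from the injection, while the series description places the move to 11% O2 at 6 weeks after it. Each library is the dissected SN of a single mouse and holds all of its cell types.

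The authors set 6 mice aside on the basis of principal components, and the values here are from the other 42: 11 monomer mice at 21% O2, 12 PFF mice at 21% O2, 9 monomer mice at 11% O2 and 10 PFF mice at 11% O2. These libraries held 12902996 to 17120921 counts on genes. The labels give 3 batches. Batch 1 held all 4 groups, batch 2 had no monomer mice at 11% O2 and batch 3 had no monomer mice at 21% O2, so batch was a term in the fit. The defining markers of dopaminergic neurons were present in every mouse: Th, the rate-limiting enzyme of dopamine synthesis, ranged from 185.2 to 1153 TPM (transcripts per 1000000 transcripts), and Slc6a3, the dopamine transporter, from 360 to 1951 TPM.

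Long noncoding RNAs are transcripts that do not serve as templates for a long protein. Neat1 is the RNA scaffold of nuclear paraspeckles, and Malat1 lies next to it on the chromosome and gathers in nuclear speckles, where splicing factors are stored. Meg3, Rian and Mirg are transcribed in the same direction from the maternal copy of the imprinted Dlk1-Dio3 domain, and carry many small RNAs in their introns and exons. Snhg1, Gas5 and Snhg11 are host genes whose introns are processed into small nucleolar RNAs (snoRNAs), the guides for modification of ribosomal RNA. Miat is a nuclear RNA of neurons and retina, and Pantr1 is transcribed divergently from Pou3f3, which encodes a neural transcription factor.

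In the GENCODE vM21 annotation of GRCm38, Malat1 (ENSMUSG00000092341) is a single exon at chromosome 19, 5795690 to 5802672, and Neat1 (ENSMUSG00000092274) is one stretch of 20771 exonic bases at chromosome 19, 5824708 to 5845478, both on the minus strand. On the plus strand of chromosome 12 lie Meg3 (ENSMUSG00000021268) at 109541001 to 109571726, Rian (ENSMUSG00000097451) at 109603940 to 109661716 and Mirg (ENSMUSG00000097391) at 109729764 to 109749460. Miat (ENSMUSG00000097767) lies on chromosome 5 at 112213228 to 112229395 on the minus strand. Snhg11 (ENSMUSG00000044349) lies on chromosome 2 at 158375638 to 158386145 on the plus strand and carries a protein-coding label in this annotation. Snhg1 (ENSMUSG00000108414) lies on chromosome 19 at 8723475 to 8726443 on the plus strand, Gas5 (ENSMUSG00000053332) on chromosome 1 at 161034422 to 161038539 on the plus strand, and Pantr1 (ENSMUSG00000060424) on chromosome 1 at 42590782 to 42694842 on the minus strand. On the same strand and within the gene, the annotation places 13 snoRNA genes in Rian, 10 in Gas5, 8 in Snhg1 and 2 in Snhg11.

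The stated counting parameters held no strand option and none to assign a read to several genes. For 3 of the RNAs, reads in exonic bases shared with an antisense gene could thus not be assigned by strand. Whether such reads were left out of the counts was not tested. Gm26953 shares 2260 exonic bases with Miat (24.3% of its exonic length), Gm26906 shares 1228 with Meg3 (6.79%) and Gm37376 shares 453 with Malat1 (6.49%). The remaining 7 shared no exonic base with another gene in vM21 once small RNAs were set aside. Reads were counted on GENCODE vM24, where Rian and Snhg11 have later versions, and overlaps in vM24 were not checked.

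Mirg is the host of 14 microRNA hairpin genes with 26 mature microRNAs in RefSeq (GRCm38.p6), whose seeds (bases 2 to 8, which pair with targets) take 25 different sequences. The polyadenylated libraries measured the host RNA and not the mature microRNAs. The following 6, between positions 109733781 and 109743784 of chromosome 12, are shown because Mirg was lower at 11% O2 in monomer mice. That call, at the edge of the threshold, is described further on. Capitals mark the seed, and the last 2 share theirs.

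mmu-miR-134-5p: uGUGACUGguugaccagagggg
mmu-miR-382-5p: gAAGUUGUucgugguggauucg
mmu-miR-154-3p: aAUCAUACacgguugaccuauu
mmu-miR-410-3p: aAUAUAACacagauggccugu
mmu-miR-453: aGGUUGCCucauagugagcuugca
mmu-miR-496a-5p: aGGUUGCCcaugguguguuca

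Malat1 ends without a poly(A) tail, and the libraries were enriched on oligo(dT) beads. Its longest reference transcript, of 6983 bases, holds a run of 12 A that ends 298 bases before the annotated end of that transcript. That stretch is shown with the run in capitals, with 30 bases on either side. Longer runs of A stood in the longest transcripts of Meg3 (16 bases) and Rian (15 bases). Whether these runs took part in the capture was not tested, nor was the position of the 3′ end of the mature Malat1 RNA.

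Malat1: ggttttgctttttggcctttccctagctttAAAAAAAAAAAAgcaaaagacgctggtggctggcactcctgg

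Promoters (250 bases before to 50 after the annotated start, RefSeq, GRCm38.p6) were given for 8 of the 10 RNAs. Snhg1, at chr19:8723237-8723536 on the plus strand, is shown because it was called higher with PFF at 21% O2. Gas5, at chr1:161034916-161035215 on the plus strand (the second of its RefSeq starts), is shown as another gene that holds several snoRNAs. Capitals mark ACGTG or GCGTG on either strand, the core letters of hypoxia response elements, and in Gas5 also CTTTC at the start, the pyrimidine run of a terminal oligopyrimidine start (C followed by at least 4 pyrimidines). ACGTG or GCGTG stood in the promoters of Malat1, Miat, Snhg11 and Snhg1 and in 1 of the 2 Gas5 promoters, and in 43.8% of 32851 mouse promoters. A terminal oligopyrimidine start stood at the annotated first base of Gas5 and Miat and of 2.51% of all promoters. TGACGTCA stood in 1 promoter each of Meg3 and Gas5 (1.79% of all), and GAANNTTC in Rian (7.86% of all). These are matches of letters, not measured sites.

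Snhg1: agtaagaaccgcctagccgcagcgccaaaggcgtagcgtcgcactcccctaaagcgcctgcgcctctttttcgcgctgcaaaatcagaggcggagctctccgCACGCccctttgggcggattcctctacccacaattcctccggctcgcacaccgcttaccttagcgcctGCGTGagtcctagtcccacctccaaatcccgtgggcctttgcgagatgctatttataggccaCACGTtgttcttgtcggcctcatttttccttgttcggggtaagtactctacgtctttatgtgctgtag
Gas5: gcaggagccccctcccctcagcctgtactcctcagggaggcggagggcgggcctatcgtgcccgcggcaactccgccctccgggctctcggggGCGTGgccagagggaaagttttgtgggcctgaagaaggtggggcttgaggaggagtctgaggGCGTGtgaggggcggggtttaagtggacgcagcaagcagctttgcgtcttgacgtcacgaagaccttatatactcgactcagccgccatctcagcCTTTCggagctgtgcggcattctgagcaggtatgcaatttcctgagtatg

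The 10 RNAs together took a median of 1.06% of all counts on genes (range 0.808 to 1.43%). Levels in TPM are scaled by the exonic length of the whole gene, not of the transcript present, so their order depends on that length. Median counts were close for Rian (11546), Malat1 (11492) and Neat1 (11013), whose TPM differed. Meg3 had a median of 1215 TPM over the 42 mice (range 867 to 1786), the highest level of the 10 and rank 54 among all genes. Snhg11 followed at 869.7 TPM (649.8 to 1249) and Malat1 at 405 TPM (267 to 556). The order Meg3, Snhg11, Malat1 and then each of the other RNAs held in 42 of 42 mice.

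Below these the levels overlapped. Miat, at a median of 147 TPM (114 to 191.3), exceeded Neat1, at 125 TPM (77.9 to 186.3), in 29 of 42 mice. Neat1 exceeded Gas5, at 98.9 TPM (81.9 to 123), in 39 mice, and Gas5 exceeded Rian, at 85.2 TPM (60.7 to 127), in 32. The last 3 were not abundant: Mirg had 22.6 TPM (15.3 to 41.3), Pantr1 13.6 TPM (9.81 to 17.1) and Snhg1 12.7 TPM (8.56 to 16.1), and they ranked 7493, 9793 and 10085 among all genes. Pantr1 exceeded Snhg1 in 24 of 42 mice, so the order of these 2 was not fixed. Between mice, the coefficient of variation ran from 9.21% for Gas5 to 22.2% for Mirg.

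**Figure D1:**
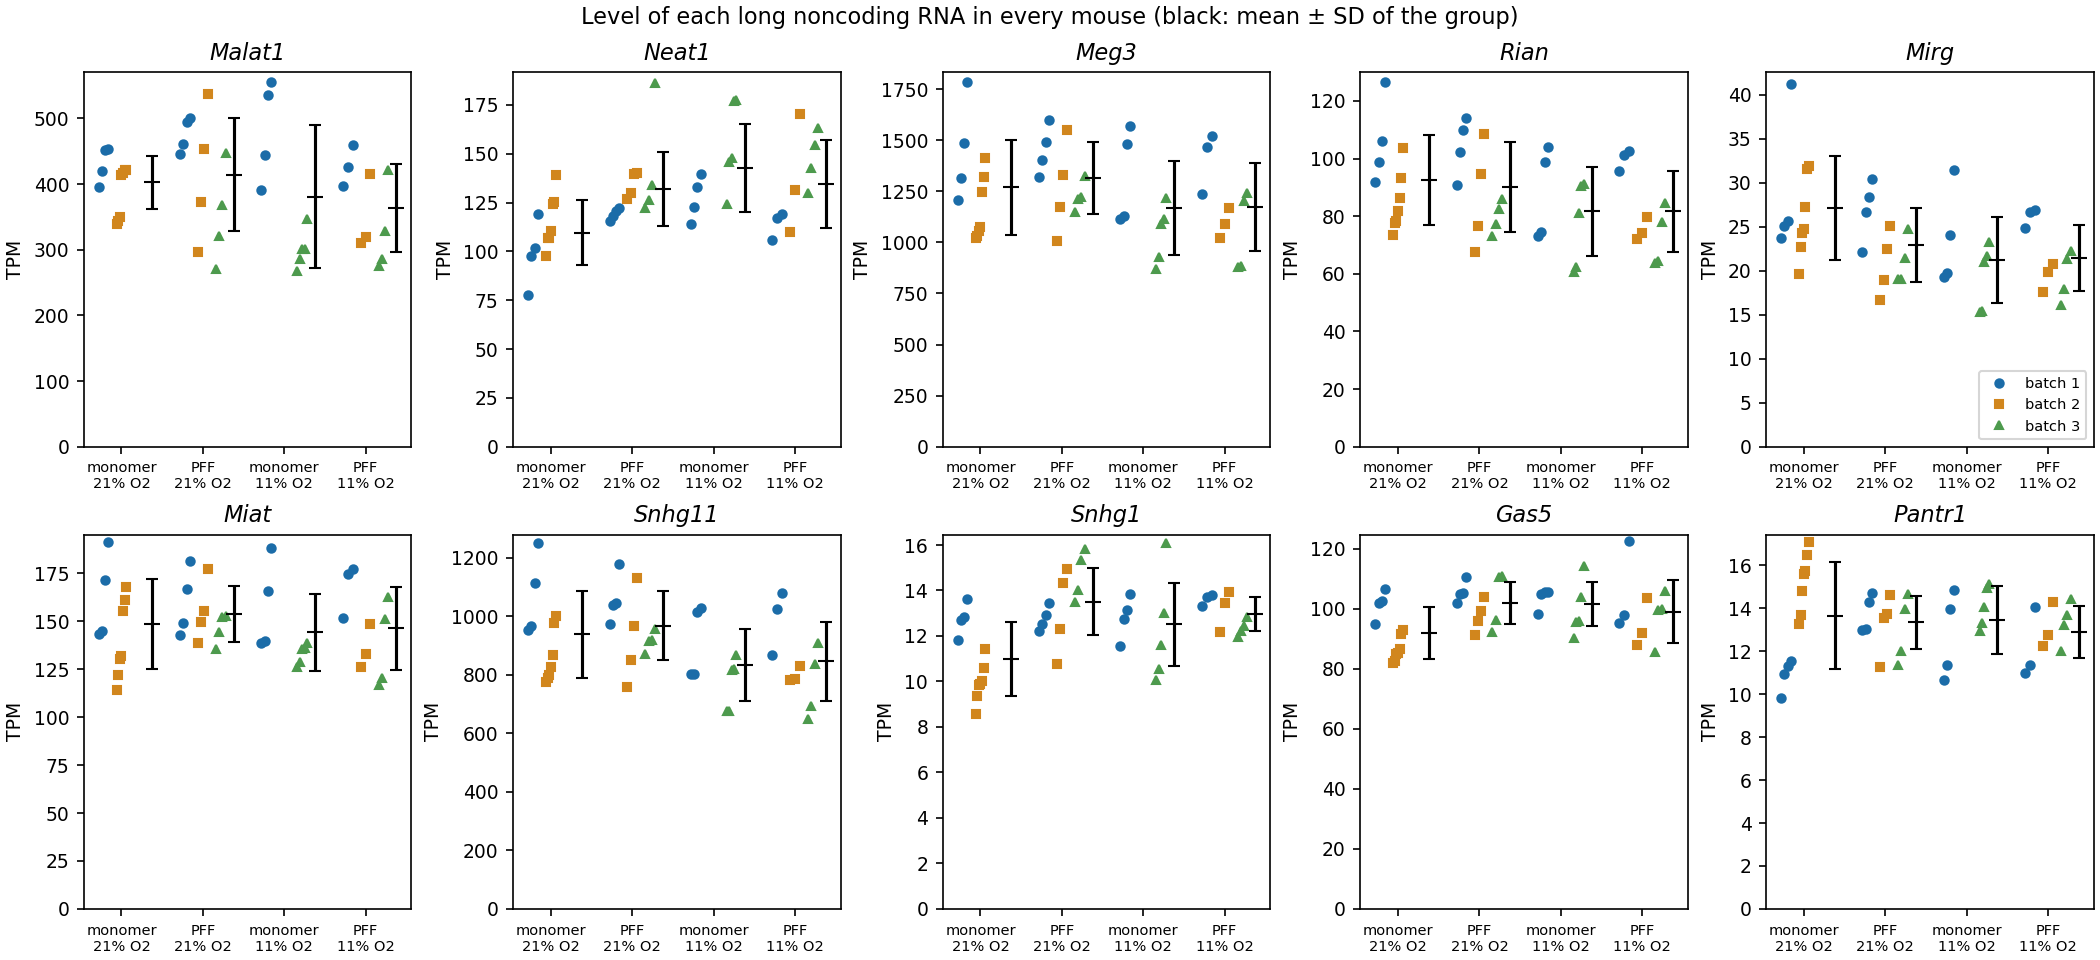
Level of each long noncoding RNA in TPM (y axis, from 0) in the 42 mice by group (x axis); colours and shapes mark the 3 batches, and black bars give the mean ± SD of the group (n = 11, 12, 9 and 10). In batch 1 (blue) Malat1, Meg3, Rian and Snhg11 tend to lie above the other batches, and the groups overlap for every RNA.

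Batch moved most of these RNAs. In the edgeR quasi-likelihood fit with Benjamini-Hochberg adjustment over all genes, Malat1 was lower than in batch 1 by a log2 fold change of -0.25 in batch 2 (adjusted p = 0.0201) and of -0.50 in batch 3 (adjusted p = 2.89e-05). Meg3, Rian, Mirg, Miat and Snhg11 were lower in both batches as well, with log2 fold changes from -0.19 to -0.35. Neat1 moved the other way and was higher by 0.21 in batch 2 (adjusted p = 0.0278) and 0.29 in batch 3 (adjusted p = 0.00196). Some of these steps were as large as the differences between groups given next.

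The first comparison asked how PFF changed the SN of mice breathing 21% O2. Of the 10 RNAs, 1 was called, meaning an adjusted p under 0.05 and a log2 fold change beyond 0.25: Snhg1 rose 1.22-fold (log2 fold change 0.28, SE 0.07, adjusted p = 0.0115). Of all genes, 4.05% were called (740 genes), and a count of 1 in 10 is too small to be set apart from that share. With adjusted p alone, 2 of 10 passed, beside 8.14% of all genes; the second was Neat1, at 0.24 in log2 (SE 0.08, adjusted p = 0.0473). The point estimate was above 0 for 8 of the 10, with a median log2 fold change of 0.08, beside 0.00 (-0.0019) over all genes.

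Snhg1 had 8.56, 10.6 and 13.6 TPM (lowest, median, highest; n = 11) in monomer mice and 10.8, 13.5 and 15.8 TPM (n = 12) in PFF mice. The groups overlapped, and the difference was seen in batch 2, where the 7 kept monomer mice ranged from 8.56 to 11.4 TPM and the 4 PFF mice had 10.8, 12.3, 14.3 and 15.0 TPM. In batch 1, the monomer mice had 11.8, 12.7, 12.8 and 13.6 TPM and the PFF mice 12.2, 12.5, 12.9 and 13.5 TPM. Fitted alone, batch 2 gave a log2 fold change of 0.39 (adjusted p = 0.0239) and batch 1 of 0.02 (adjusted p = 0.949). Few genes of any kind were called in batch 1 alone in this comparison, 7 of 18307, beside 790 of 18362 in batch 2 alone. The monomer mouse of batch 2 that the study left out had 13.0 TPM, above all 7 kept ones, and with all 48 mice the adjusted p was 0.064. Slc3a2, the amino acid transporter subunit whose gene lies 106 bases from Snhg1, stood at 0.00 in log2 (0.0027, SE 0.05, adjusted p = 0.979).

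Neat1 had 77.9, 107 and 139 TPM in monomer mice and 116, 127 and 186.3 TPM in PFF mice, with overlapping groups. Its value was 0.28 in batch 1 alone (adjusted p = 0.333) and 0.21 in batch 2 alone (adjusted p = 0.269). The adjusted p rose to 0.0567 with replicate number as a further term (the replicate block) and to 0.118 with all 48 mice. Whether replicate numbers follow the matched pairs of the paper's design is not known. In this comparison all 6 microglial markers were also higher, with none called, 6 of 7 oligodendrocyte markers were higher, with Opalin called, and 7 of 8 neuronal markers were lower, with none called. The part of these shifts in the values of the RNAs was not tested.

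Among the other RNAs, Gas5 had 81.9, 91.6 and 107 TPM in monomer mice and 91.2, 103 and 111 TPM in PFF mice, and its log2 fold change of 0.13 (SE 0.05) missed the threshold (adjusted p = 0.0648). Mirg stood at -0.22 (SE 0.10, adjusted p = 0.161), whereas its neighbours in the domain, Meg3 (0.09) and Rian (-0.01), had adjusted p of 0.538 and 0.977. The 95% intervals of Rian (-0.16 to 0.15) and Pantr1 (-0.14 to 0.16) lay inside ±0.25. For Malat1 the fit gave 0.13 (SE 0.09, adjusted p = 0.385), with 339, 417 and 454 TPM in monomer mice and 271, 446 and 537 TPM in PFF mice.

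**Figure D2:**
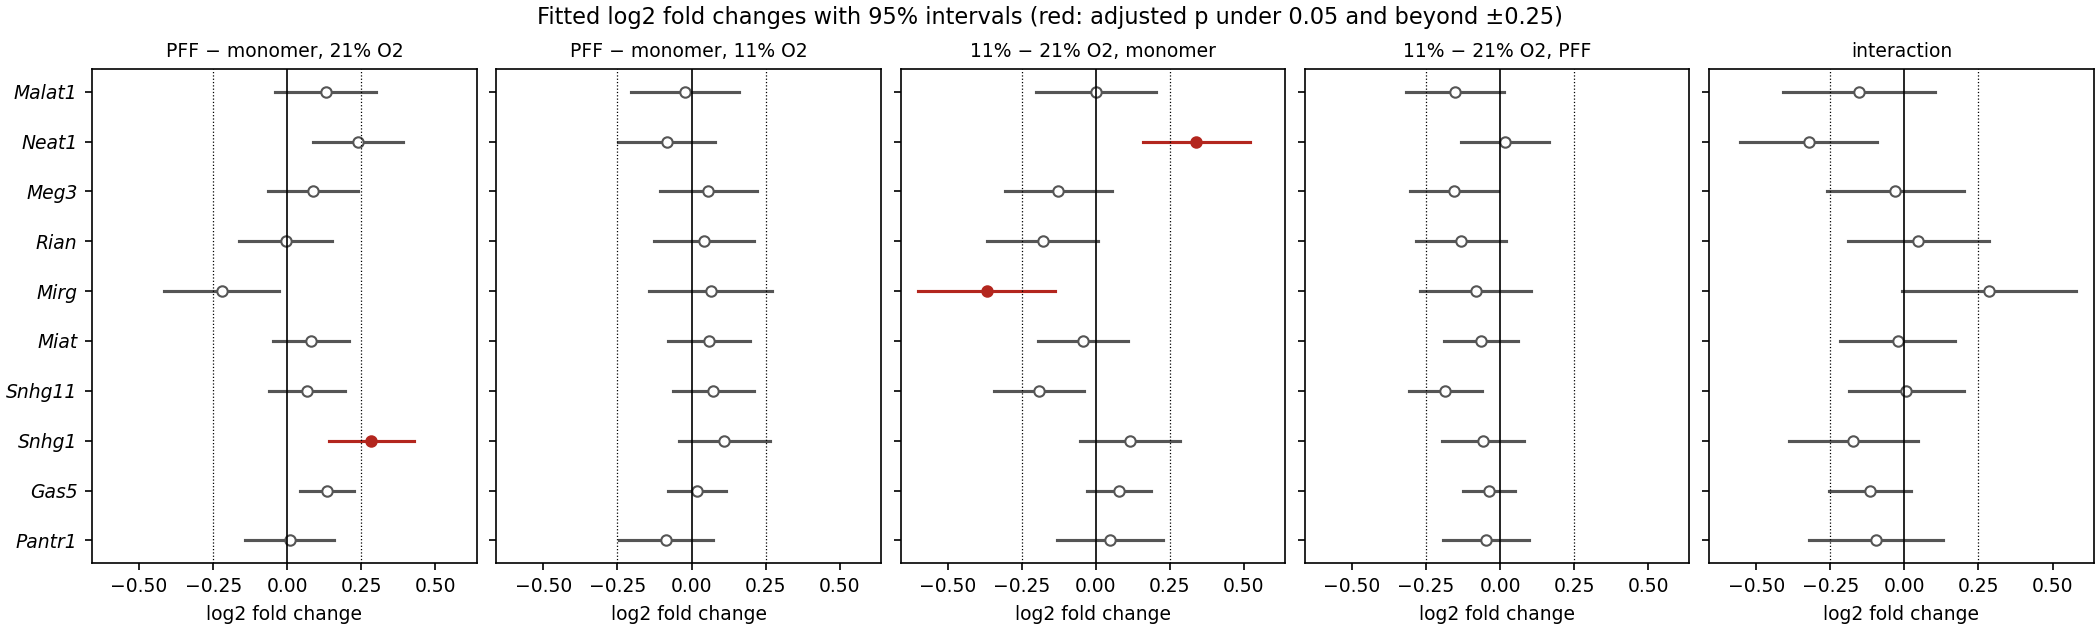
Fitted log2 fold change (x axis, points) and its 95% interval from the SE (lines) of each RNA (y axis) in the 5 comparisons; filled red points were called, and dotted lines mark ±0.25. Snhg1 is red in the first panel, and Neat1 and Mirg in the third, where they lie on opposite sides of 0.

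Other noncoding snoRNA hosts mostly had point estimates above 0 as well. Of 17 listed, 15 entries were tested, Snhg4 under 2 identifiers, and 14 had a positive log2 fold change with PFF at 21% O2, with a median of 0.13, beside -0.0019 over all genes. At an unadjusted p under 0.05 there were 7, beside 23.3% of all genes, and only Snhg15 was called (0.52 on the log2 scale, SE 0.12, adjusted p = 0.00541). Snhg12 passed on adjusted p alone (0.18, SE 0.06, adjusted p = 0.0369). Among 18 other long noncoding RNAs of the brain, 3 rose: Mir9-3hg, host of a neural microRNA, by 0.51 on the log2 scale (SE 0.07, and an adjusted p of 2.08e-05), Rmst, which binds the neural factor Sox2, by 0.28 (SE 0.06, adjusted p = 0.00367), and Jpx, an activator of Xist, by 0.29 (SE 0.07, adjusted p = 0.00678). In batch 1 alone none of these passed, with values of 0.33 for Snhg15, 0.24 for Mir9-3hg, 0.32 for Rmst and 0.25 for Jpx. That fit called only 7 of 18307 genes.

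Genes for the proteins that share nuclear bodies with Neat1 and Malat1 were set beside them. Of 16 paraspeckle protein genes, 1 was called, beside 4.05% of all genes. This was Rbm14, with a change of -0.34 in log2 (SE 0.06, adjusted p = 0.000592, and -0.11 in batch 1 alone), and none rose past the threshold of size. Sfpq, a core paraspeckle protein, stood at -0.24 in log2 (SE 0.05, adjusted p = 0.004), just under that threshold. Pspc1 moved the other way, at 0.12 in log2 (SE 0.03, adjusted p = 0.0182). Sfpq and Pspc1 thus passed on adjusted p alone, as did 8.14% of all genes. Of 17 nuclear speckle protein genes, none was called by edgeR or DESeq2, and 7 had an unadjusted p under 0.05, beside the same 23.3% of all genes. Srsf5 passed on adjusted p alone (0.15 in log2, SE 0.04, adjusted p = 0.0107). Of 5 other genes of the Dlk1-Dio3 domain, 3 were tested, 0 were called by edgeR or DESeq2 and 0 had an unadjusted p under 0.05. Dlk1 had a log2 fold change of 0.05 (SE 0.26) and Rtl1, which lies antisense between Meg3 and Rian, of 0.12 (SE 0.17).

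At 11% O2, PFF against monomer gave no call for any of the 10 RNAs, nor for any other gene (0% called, and 0% with adjusted p alone, by edgeR), and DESeq2 and limma also called 0. At an unadjusted p under 0.05 there were 707 of 18293 genes and 0 of the 10 RNAs. The point estimates ran from -0.09 for Pantr1 (SE 0.08) to 0.11 for Snhg1 (SE 0.08). Neat1 had a log2 fold change of -0.08 with a 95% interval of -0.25 to 0.08, and Mirg one of 0.06 with an interval of -0.14 to 0.27. Snhg1 had 10.1, 12.7 and 16.1 TPM in monomer mice and 11.9, 13.1 and 13.9 TPM in PFF mice, so the PFF values lay within the range of the monomer values.

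The next comparison asked what 11% O2 did to mice without fibrils. Of the 10 RNAs, 2 were called in monomer mice, beside 4.66% of all genes. Neat1 rose 1.26-fold (log2 fold change 0.34, SE 0.09, adjusted p = 0.0187). Mirg fell by 0.37 in log2 (SE 0.12, adjusted p = 0.0493), to 0.774 of its level at 21% O2. The same 2 passed with adjusted p alone, beside 6.59% of all genes. Both this comparison and the one of PFF at 21% O2 used the same 11 monomer mice at 21% O2, so their values are not independent.

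Neat1 had 77.9, 107 and 139 TPM (n = 11) at 21% O2 and 114, 140 and 177.6 TPM (n = 9) at 11% O2 in monomer mice. Batch 1, which alone held both groups, gave 77.9, 97.5, 101 and 119 TPM at 21% O2 against 114, 123, 133 and 140 TPM at 11% O2, so the values overlapped by a single pair. That batch alone gave a log2 fold change of 0.36 with an adjusted p of 0.0679, close in size to the joint fit, in which groups shared between batches set the batch steps. The 3 monomer mice at 11% O2 that the study left out had 141, 181.9 and 233 TPM, and 2 of these exceeded every kept mouse of the group. With all 48 mice the log2 fold change was 0.39 (adjusted p = 0.00916). The nearest tested protein-coding gene, Frmd8, 4.22 kb away, stood at 0.05 in log2 (SE 0.09, adjusted p = 0.814).

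Mirg had 19.7, 25.1 and 41.3 TPM at 21% O2 and 15.3, 21.0 and 31.5 TPM at 11% O2. The mouse with 41.3 TPM, replicate 4 of batch 1, also had the lowest Neat1 of its group (77.9 TPM), and a fit without it was not run. In batch 1 the 4 mice at 21% O2 had 23.7, 25.1, 25.6 and 41.3 TPM and the 4 at 11% O2 had 19.3, 19.7, 24.1 and 31.5 TPM, so the groups overlapped, and the adjusted p in that batch alone was 0.349. The call was at the edge of the threshold: it was lost without the monomer mouse (replicate 11) that was harvested at 98 days, after the rest of its batch (adjusted p = 0.0807), with DESeq2 size factors in edgeR (0.0519), with TMM factors from protein-coding genes (0.0591) and with the replicate block (0.148), and was kept by DESeq2 (0.034) and with all 48 mice (0.0165). The other RNAs of the domain had log2 fold changes of -0.18 (Rian, SE 0.10, adjusted p = 0.283) and -0.13 (Meg3, SE 0.09, adjusted p = 0.462). Snhg11 had one of -0.19 (SE 0.08, adjusted p = 0.133), and Malat1 one of 0.00 (5.3e-05) with a 95% interval of -0.20 to 0.20.

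**Figure D3:**
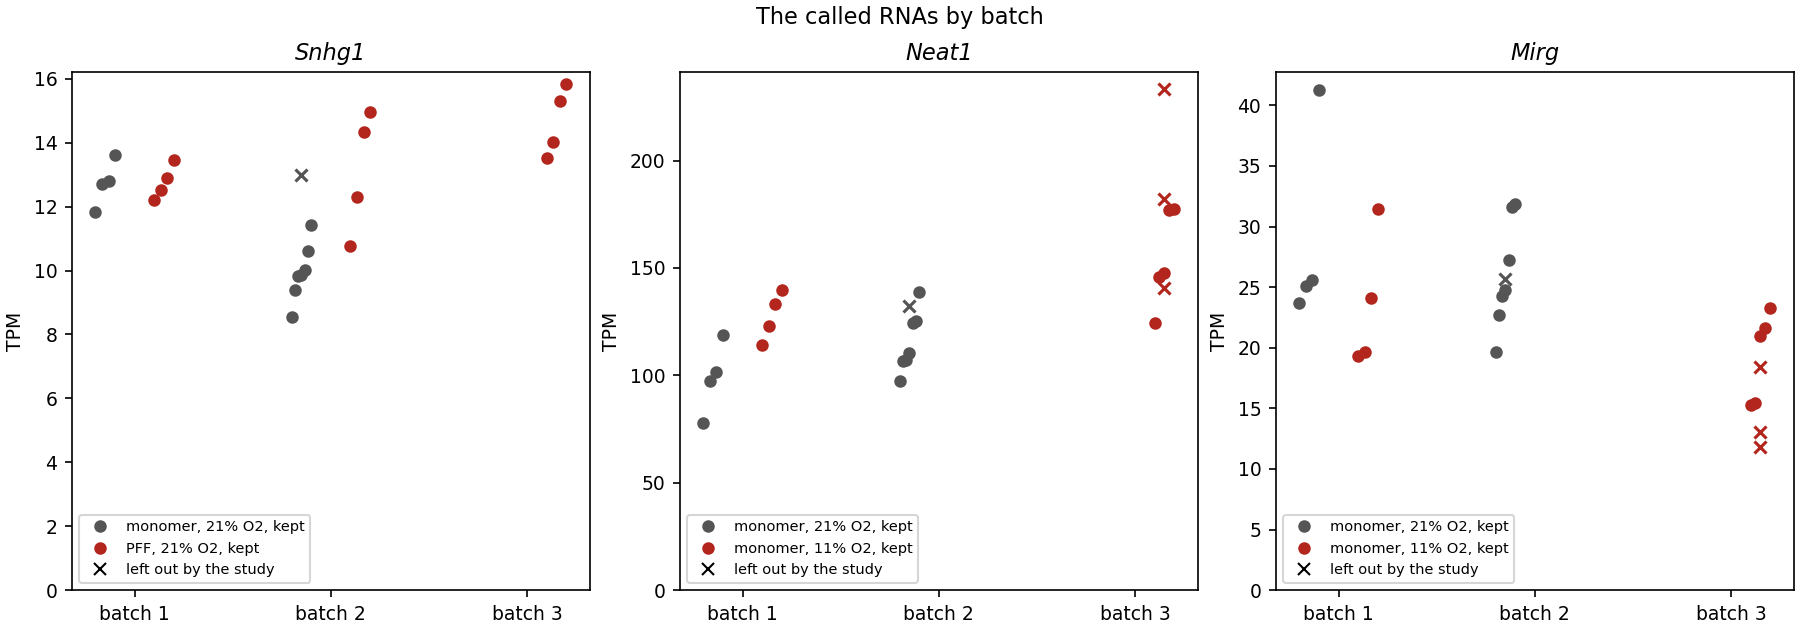
TPM (y axis, from 0) of the 3 called RNAs by batch (x axis) in the groups each call compares; dots are kept mice and crosses mice the study left out. The Snhg1 values of the groups lie apart more in batch 2 than in batch 1, while Neat1 and Mirg can be compared directly in batch 1 alone, and 2 left-out mice hold the highest Neat1 and the lowest Mirg of their group.

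Markers of other cell types moved in the same comparison. All 7 oligodendrocyte markers had positive log2 fold changes at 11% O2 in monomer mice, and 3 were called: Opalin (0.69), Mog (0.32) and Cnp (0.25). The summed oligodendrocyte markers had a median of 8255 TPM (7297 to 9352) at 21% O2 and 9597 TPM (8089 to 12741) at 11% O2. All 6 endothelial markers were also higher and 4 were called, all 6 microglial markers were higher with none called, and all 8 neuronal markers were lower with none called. No marker of the neuronal, oligodendrocyte, astrocyte, microglial or endothelial lists had a median of 0. In bulk tissue, fewer cells of a type and less RNA per cell cannot be told apart, and the part of these shifts in the values of Neat1 and Mirg was not tested.

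Among the related genes, 3 paraspeckle protein genes fell: Rbm14 by 0.39 in log2 (SE 0.08, adjusted p = 0.00119), Sfpq by 0.32 (SE 0.06, adjusted p = 0.0013) and Rbm12 by 0.34 (SE 0.07, adjusted p = 0.00275), while the other 13 of 16 were not called. Nono, another core paraspeckle protein, had a log2 fold change of 0.00 (-0.0037, SE 0.03). Of the 15 snoRNA host entries, Snhg18 rose (0.57, SE 0.12, adjusted p = 0.00265) and 12 had positive values. Mir9-3hg (0.50, SE 0.09, adjusted p = 0.000294) and Rmst (0.29, SE 0.08, adjusted p = 0.0118) rose among the 18 brain RNAs. In batch 1 alone, Mir9-3hg and Rbm12 were still called, while Rbm14 (adjusted p = 0.063), Sfpq (0.0702), Snhg18 (0.114) and Rmst (0.194) kept their direction without passing. That fit called 351 of 18307 genes. Of the 17 speckle protein genes, 0 were called by edgeR or DESeq2 and 4 had an unadjusted p under 0.05, near the 21.0% of all genes that did, and of the 3 other genes of the Dlk1-Dio3 domain the counts were 0 and 0. On adjusted p alone, the speckle protein genes Srsf3 (-0.18, adjusted p = 0.00482), Srsf7 (-0.16, adjusted p = 0.0361) and Srsf5 (0.15, adjusted p = 0.0331) passed, beside 6.59% of all genes.

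In PFF mice, 11% against 21% O2 gave no call among the 10 RNAs by edgeR or DESeq2, beside 0.536% of all genes called and 0.809% with adjusted p alone. At an unadjusted p under 0.05 there were 2, Snhg11 and Meg3, beside 11.7% of all genes, so the count was near the background. Point estimates were below 0 for 9 of the 10, with a median log2 fold change of -0.07, beside -0.0030 over all genes. Snhg11 had 758, 961 and 1178 TPM at 21% O2 and 650, 832 and 1080 TPM at 11% O2, and the fit gave -0.18 in log2 (SE 0.06, adjusted p = 0.195). Its value in monomer mice was -0.19, so the estimates were close in both injections, while neither passed. Neat1 stood at 0.02 in log2 (SE 0.08, adjusted p = 0.961), with 116, 127 and 186.3 TPM at 21% O2 and 106, 131 and 170.5 TPM at 11% O2. Mirg stood at -0.08 in log2 (SE 0.10, adjusted p = 0.801).

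Whether PFF acted differently at the 2 oxygen levels was tested by the interaction. No RNA of the 10 was called by edgeR or DESeq2, beside 1.59% of all genes called and 1.86% with adjusted p alone. Neat1, the 1 RNA with an unadjusted p under 0.05, beside 14.7% of all genes, had an interaction of -0.32 (SE 0.12, adjusted p = 0.156), with a 95% interval of -0.55 to -0.09. Mirg had one of 0.29 (SE 0.15, adjusted p = 0.376) and Snhg1 one of -0.17 (SE 0.11, adjusted p = 0.494). The calls of Snhg1 at 21% O2 and of Neat1 and Mirg in monomer mice were thus not shown to differ from the values in the other arm. Of the 15 snoRNA host entries, 14 had a negative interaction, none called by edgeR or DESeq2. The interaction subtracts the value at 21% O2, which was positive for 14 of these entries, so its signs are not a separate result. At an unadjusted p under 0.05 there were 4, beside the 14.7% of all genes.

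Within groups, the RNAs varied in a structured way. Log2 CPM (counts per 1000000 counts), with the mean of each group and batch removed, were correlated over the 42 mice for the 45 pairs, with 100000 permutations of mice within group and batch and adjustment over the pairs. Meg3, Rian, Mirg, Miat and Snhg11 rose and fell together: all 10 pairs among them passed, with Pearson r from 0.76 to 0.96 and Spearman rho from 0.77 to 0.95 (permutation adjusted p = 4.5e-05 for each). Before adjustment each permutation p was 1e-05, the smallest the permutations could give. The pair of highest r was Meg3 and Snhg11, which lie on different chromosomes. Within single batches r stayed between 0.64 and 0.97, and without the 2 mice farthest from the median between 0.77 and 0.95.

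Pantr1 ran against this group, with r from -0.61 (Mirg) to -0.49 (Snhg11) and rho from -0.63 to -0.50 (permutation adjusted p from 0.000736 to 0.0166). With all 48 mice the r of Rian and Pantr1 was -0.28 (permutation adjusted p = 0.0915) and the r of Snhg11 and Pantr1 was -0.34 (permutation adjusted p = 0.0533). Neat1 passed with none of the 5 RNAs in the 42 mice, with r from -0.36 to -0.21 and permutation adjusted p from 0.0877 to 0.286, whereas with all 48 mice it passed with 4 of them, and the r of Neat1 and Mirg was then -0.50 (permutation adjusted p = 0.0109). Malat1 correlated with Meg3 (r = 0.51, rho = 0.50, permutation adjusted p = 0.0108), Rian, Miat and Snhg11, yet r for Malat1 and Meg3 was 0.07 in batch 1, 0.79 in batch 2 and 0.58 in batch 3, and with all 48 mice the r of Malat1 and Meg3 was 0.26 (permutation adjusted p = 0.194). Neat1 and Malat1, neighbours on chromosome 19, had r = 0.24 and rho = 0.22 (permutation adjusted p = 0.259). Snhg1 and Gas5 had r = 0.35 and rho = 0.31 (permutation adjusted p = 0.0732), and r = 0.17 without the 2 mice farthest from the median. Of the 45 pairs, 19 passed on r, of which 14 were positive, and 20 on rho.

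The same values were set against the mean of each cell type marker list, 70 relations in all, chosen after the data had been seen. The group of Meg3, Rian, Mirg, Miat and Snhg11 rose with markers of neurons (r from 0.45 to 0.65) and of dopaminergic neurons (r from 0.58 to 0.76), and fell with those of astrocytes (r from -0.84 to -0.77) and microglia (r from -0.79 to -0.69), with permutation adjusted p of 0.00166 or lower. They also fell with markers of oligodendrocytes (r from -0.57 to -0.44, permutation adjusted p from 0.00056 to 0.00993), and 3 of the 5 passed with those of endothelial cells (r from -0.43 to -0.27 over the 5). Spearman rho ran from 0.55 to 0.68 for neurons and from -0.86 to -0.80 for astrocytes, and each batch alone kept the sign. Neat1 ran the other way: r was 0.59 with oligodendrocytes (rho = 0.57, permutation adjusted p = 0.0016), 0.50 with astrocytes (rho = 0.40, permutation adjusted p = 0.0079) and -0.62 with neurons (rho = -0.51, permutation adjusted p = 0.00164). Without the 2 mice farthest from the median these were 0.51, 0.34 and -0.50, and in batch 2 alone 0.35, 0.17 and -0.36.

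Pantr1 rose with microglia (r = 0.66, rho = 0.69, permutation adjusted p = 0.000272) and astrocytes (r = 0.64, rho = 0.72, permutation adjusted p = 1e-04). Malat1, Snhg1 and Gas5 passed with none of the 7 lists on r. All values of a mouse share its library and its scaling, in which a higher share of some transcripts lowers that of others.

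**Figure D4:**
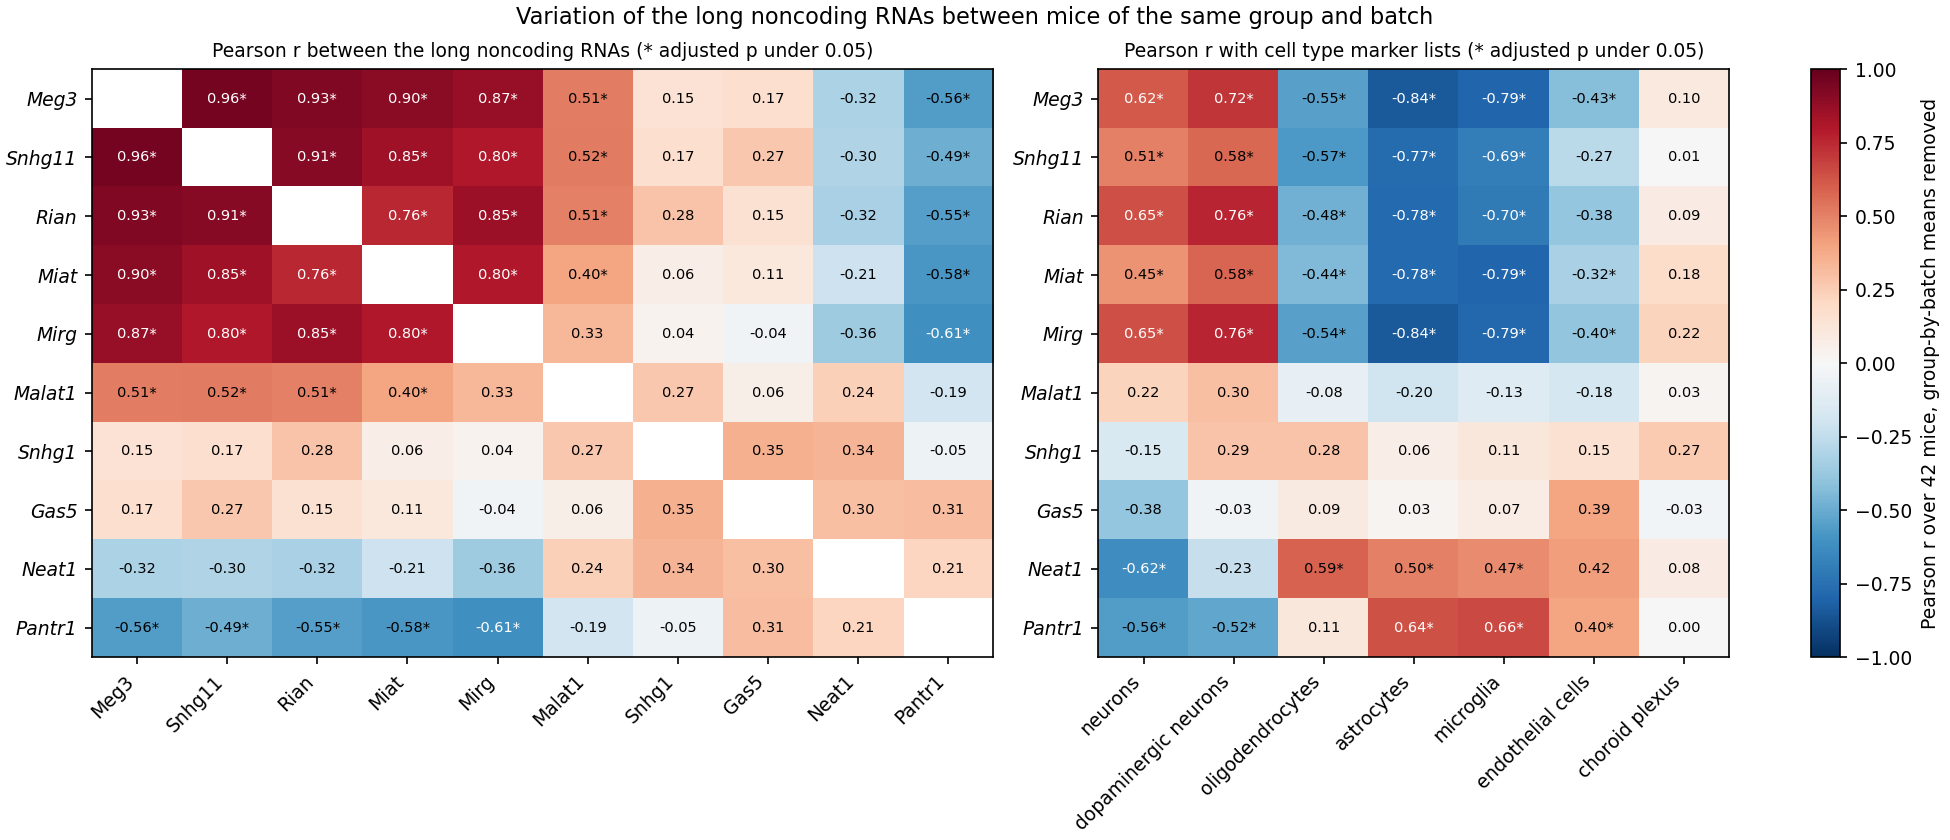
Pearson r over 42 mice, after removal of group and batch means, between the RNAs (left) and between each RNA and the mean of 7 cell type marker lists (right); red is positive, blue negative, and asterisks mark an adjusted permutation p under 0.05. The 5 RNAs from Meg3 to Mirg form a block of r from 0.76 to 0.96 that is positive with neuronal lists and negative with glial ones, while Neat1 and Pantr1 have the opposite signs with these lists.

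As a description, the genes whose centred levels were most like those of each RNA were searched among 11437 genes with a mean log2 CPM of at least 3, over the 42 mice. For Meg3 these were Mdn1 (r = 0.95), Trank1 (r = 0.95) and Gm27000 (r = 0.95), for Rian Cdr1os (r = 0.95), Elavl2 (r = 0.94) and Pgap1 (r = 0.94), and for Snhg11 Dcx (r = 0.94), Hook1 (r = 0.93) and Cdr1os (r = 0.93). Mirg was closest to Raph1 (r = 0.89), Mdn1 (r = 0.88) and Zim1 (r = 0.88), and Miat to Cers4 (r = 0.93), Ryr3 (r = 0.91) and Mdn1 (r = 0.91). Mdn1 thus stood among the closest 3 of Meg3, Mirg and Miat.

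Genes close to Gas5 included the ribosomal protein genes Rps7 (r = 0.90) and Rpl34 (r = 0.87). Neat1 was closest to Cercam (r = 0.82), Nrbp2 (r = 0.80) and Map7 (r = 0.79), and Pantr1 to Mrpl42 (r = 0.85), Cst3 (r = 0.82) and Ndufa9 (r = 0.80). Malat1 and Snhg1 had looser companions: Sec61a2 (r = 0.69), the splicing factor Srsf11 (r = 0.68) and Mms19 (r = 0.68) for Malat1, and Pop4 (r = 0.68), Ctnnal1 (r = 0.65) and Ccdc59 (r = 0.65) for Snhg1. Pou3f3, which starts 0.926 kb from Pantr1, had log2 fold changes of 0.17 (SE 0.05, adjusted p = 0.0842) for 11% against 21% O2 in PFF mice and of -0.13 (SE 0.05, adjusted p = 0.109) for PFF at 21% O2, beside -0.05 and 0.01 for Pantr1.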

How the data were processed

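RNA-seq libraries of SN from 48 mice were prepared from polyadenylated RNA. Per the methods and labels, the authors removed ribosomal reads, aligned to mm10 with STAR 2.7.5a, removed duplicates with Picard 2.21.9, and counted reads per gene of GENCODE vM24 with featureCounts 2.0.1 with no strand option among the stated parameters. They deposited whole-number counts and TPM computed from them (summing to 1000000 per mouse), and batch-corrected counts of 42 mice. Groups were taken from the sample titles, and replicates are separate mice.

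Deposited counts of the 42 mice were fitted with edgeR 4.0.16 (TMM, filterByExpr by group, quasi-likelihood test, group and batch as terms) in R 4.3.3, with adjustment over 18293 genes and SE as the absolute log2 fold change over the square root of F. In 200 genes of simulated counts for PFF against monomer at 21% O2 (18161 genes fitted), edgeR recovered 74% of changes of 0.5 and 94% of changes of 1 on the log2 scale. Levels are deposited TPM. Alternatives were DESeq2 1.42.0, limma 3.58.1 on log2(TPM + 1), other scalings, all 48 mice and single batches.

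The RNAs and gene lists were chosen with earlier results of these data known. Named were all 10 RNAs, at most 3 called genes per related list and comparison by smallest p, the 3 most alike genes (of which 1 is not reported here) and tested coding neighbours; other genes with values were chosen after these were seen.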

Additional observations from a re-analysis of the deposited data

Results flagged for a closer look

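None of the 10 RNAs had a mouse far from the others in the groups of 9 and 10 mice, in 20 checks, and none passed the test of the interaction. The groups at 21% O2, of 11 and 12 mice, were not checked in this way. In the monomer group at 21% O2, replicate 4 of batch 1 held both the lowest Neat1 (77.9 TPM) and the highest Mirg (41.3 TPM). Among the related genes, the effect of PFF differed between the oxygen levels by the interaction test of edgeR (adjusted over all genes) for Mir9-3hg (interaction -0.59, SE 0.11, adjusted p = 0.00328), which had a log2 fold change of 0.51 with PFF at 21% O2 and of -0.08 at 11% O2. It differed likewise for Sfpq (interaction 0.35, SE 0.08, adjusted p = 0.0168), with log2 fold changes of -0.24 at 21% O2 and 0.11 at 11% O2. In batch 1 alone, the only batch with all 4 groups, the adjusted p were 0.513 and 0.554, and 9 of 18307 genes were called. For Sfpq the replicate block gave an adjusted p of 0.0599, and limma on log2(TPM + 1) and on log2(TPM + 0.1) gave 0.0595 and 0.0884.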

How the results depend on the processing

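The number of the 10 RNAs called for PFF against monomer at 21% O2, 1 in the values reported, was 0 with all 48 mice, in batch 1 alone and with only the compared groups in the fit, and 2 with no batch term and with upper-quartile factors, which added Neat1. For 11% against 21% O2 in monomer mice, 2 in the values reported, it was 1 with DESeq2 size factors in edgeR, upper-quartile factors, TMM from protein-coding genes, no filter on low counts, the replicate block with batch, the 3 fits of limma on TPM and without monomer mouse 11, each losing Mirg. It was 0 in batch 1 alone and with only the compared groups in the fit. In the latter, with batch as a term, only the mice of batch 1 compare the oxygen levels, as no other batch held both monomer groups. The cause of the other changes was not tested. The other 3 comparisons had 0 calls under every alternative run. The paper describes a randomized design with matched pairs, and whether replicate numbers follow those pairs is not known. Some same-numbered mice lay in different batches, and median r was 0.009 for same-numbered mice and -0.0042 for others. The replicate block is therefore not a test of the matched pairs. It left the count at 1 for PFF at 21% O2 and at 0 in the other 3 comparisons. Of 735 member fold changes under another setting, 716 stayed on their side of the call threshold, 16 lost the call and 3 gained it (Neat1 as above, and Snhg11 at 11% against 21% O2 in monomer mice with all 48 mice, at -0.25 in log2 and an adjusted p of 0.0446, for a count of 3), while 47 that were not called in either changed sign. The 19 pairs of RNAs that passed were 19 as well with TMM from protein-coding genes and with all 48 mice, though 6 pairs lost and 6 gained the threshold with all 48. Of the relations with marker lists, 37 passed, and 36 and 35 in those settings. Snhg1, with 112 to 220 counts per mouse, had the fewest reads.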
